A study of Mus musculus with 6 samples.

Results

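Transcripts of 7 GABA receptor subunits were examined in mouse hippocampus after cerebral ischemia/reperfusion (I/R). They were chosen by gene name from the table of 41386 genes: Gabra2, Gabra4, Gabra5, Gabrb1, Gabrd, Gabbr1 and Gabbr2. All 7 were among the 18569 genes with enough counts to be tested. The mice were C57BL/6 (C57BL/6J in the study's methods) and 56 days old. In the I/R group the left middle cerebral artery was blocked by a filament for 1.5 h and blood flow was then restored for 24 h, and sham mice were operated on without the occlusion. Each group had 3 RNA-seq libraries of total hippocampal RNA, and the study's methods state that adult males were used, that hippocampi of the injured side were taken, and that several hippocampi were pooled per library. P-values therefore measure the spread between pools.

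GABA is the main inhibitory transmitter of the brain. GABA-A receptors are chloride channels built from 5 subunits, usually alpha and beta subunits with a gamma or a delta subunit, and the alpha subunit sets where the channel sits and which drugs it binds. GABA-B receptors are slower. They are obligate pairs of the Gabbr1 product, which binds GABA, and the Gabbr2 product, which couples to G proteins, and they open potassium channels and restrain transmitter release. In the hippocampus, alpha5 receptors and receptors of alpha4 with delta lie mostly outside synapses and carry tonic inhibition, whereas alpha2 receptors are placed at synapses, many of them on the axon initial segment of pyramidal cells.

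The libraries held 37493042 to 44788547 counts. A level is given as CPM, counts relative to a fixed library size, on TMM-scaled library sizes (edgeR's normalization between libraries), with factors of 1.06 to 1.15 in I/R and 0.908 to 0.920 in sham. A gene was called a DEG where edgeR's quasi-likelihood test gave a Benjamini-Hochberg adjusted p under 0.05 and the fold change exceeded 1.2 in either direction. Of all genes tested, 41.8% were called, 19.9% as lower and 21.8% as higher, so a lower call alone was common in this comparison. Neuronal markers were counted in every library: the lowest count of any marker in any library was 3009 among 10 pan-neuronal, 27 among 9 dentate granule cell and 469 among 8 CA pyramidal markers.

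All 7 receptor genes were lower after I/R, against 19.9% of all genes tested. In each of them the 3 I/R libraries lay below the 3 sham libraries, which held for 28.1% of all genes tested. The levels after I/R were 36.7% to 57.7% of sham. Their median log2 fold change was -1.04, beside 0.026 for all genes tested. The delta subunit gene Gabrd had the largest fold change of the 7 and the alpha2 gene Gabra2 the smallest. In bulk tissue, fewer cells of a type and less RNA per cell cannot be told apart.

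**Figure D1:**
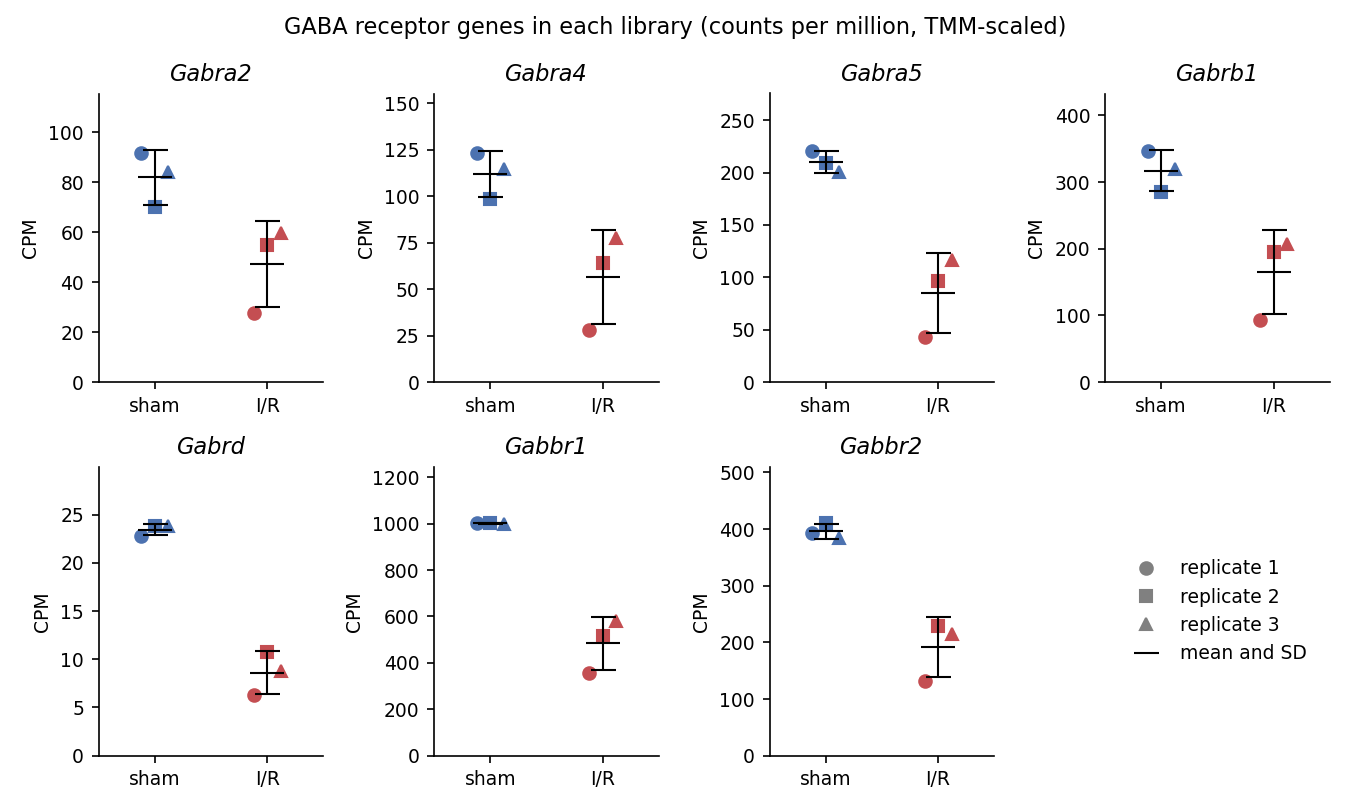
Level of each receptor gene (CPM, linear axis from 0) in the 3 sham and the 3 I/R libraries. Symbols mark the replicate number, and bars give mean and SD of 3 libraries. In every panel the I/R points sit below the sham points, and I/R replicate 1 is the lowest, for example 357 CPM for Gabbr1 against 1000 or more in sham.

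The alpha subunit genes were described first. Gabra2 (MGP_BALBcJ_G0029583, chromosome 5, 68849267 to 68996532, minus strand, BALB/cJ assembly) encodes the alpha2 subunit of synaptic receptors. I/R replicates 1, 2 and 3 had 27.6, 54.9 and 59.5 CPM, and sham replicates 1, 2 and 3 had 91.7, 70.1 and 84.2 CPM (the order kept for the other members). The sham libraries were all higher, yet sham replicate 2 was closer to I/R replicate 3 than to sham replicate 1. The mean fell from 82.0 ± 11.0 to 47.3 ± 17.3 CPM (SD, n = 3). The log2 fold change was -0.79 with a standard error (SE) of 0.26 and an adjusted p of 0.0414 by edgeR. This was the weakest call of the 7. It was lost in 8 of 17 alternative fits, in which the adjusted p ranged from 0.00182 to 0.139. Among these were the fits without I/R replicate 2 (adjusted p = 0.0569 by edgeR) and without any 1 of the sham libraries (0.0709 to 0.122).

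Gabra4 (MGP_BALBcJ_G0029585, chromosome 5, 69454784 to 69549682, minus strand) encodes alpha4, the usual partner of delta in the dentate gyrus. Libraries of the I/R group had 28.2, 63.8 and 77.3 CPM, and those of the sham group 123, 98.5 and 115 CPM. The groups did not overlap, and the I/R libraries spread more widely than the sham libraries. The mean fell from 112 ± 12.4 to 56.4 ± 25.4 CPM, or by 0.99 on the log2 scale (SE 0.32, adjusted p = 0.0366 by edgeR). This call was also lost in 8 of 17 alternatives, with an adjusted p between 0.000770 and 0.167, among them those without I/R replicate 2 (0.0646 by edgeR) or without any 1 of the sham libraries (0.0759 to 0.103).

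Gabra5 (MGP_BALBcJ_G0032310, chromosome 7, 56929656 to 57036013, minus strand) encodes alpha5, a subunit enriched in hippocampus and known for its part in tonic inhibition and in learning. Its I/R libraries had 42.8, 96.3 and 116 CPM and its sham libraries 221, 209 and 200 CPM. Each sham library was above every I/R library by a wide margin. The mean fell from 210 ± 10.2 to 85.2 ± 38.1 CPM, or by 1.30 on the log2 scale (SE 0.31, adjusted p = 0.0122 by edgeR), the largest among the 3 alpha genes of the set. The call was lost in 1 of 17 alternatives, the fit with no count filter, with an adjusted p of 5.81e-07 to 0.0767.

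The beta subunit gene Gabrb1 (MGP_BALBcJ_G0029586, chromosome 5, 69549487 to 70028663, plus strand) encodes beta1, which helps to form the GABA binding site with an alpha subunit. The I/R libraries held 93.3, 196 and 207 CPM, whereas the sham libraries held 346, 285 and 320 CPM. The groups were apart, and I/R replicate 1 stood well below the other I/R libraries. The level fell from 317 ± 30.7 to 165 ± 62.8 CPM, or by 0.94 on the log2 scale (SE 0.27, adjusted p = 0.0257 by edgeR). Across 17 alternatives the adjusted p was 1.77e-05 to 0.0849, and 13 of them kept the call. It was lost without the count filter and without any 1 of the sham libraries (adjusted p = 0.0608 to 0.0796 by edgeR).

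The delta subunit gene Gabrd (MGP_BALBcJ_G0029193, chromosome 4, 153471951 to 153484777, minus strand) belongs to receptors outside synapses, which respond to low GABA and to neurosteroids. It was the least abundant of the 7, with 286 to 431 counts in an I/R library and 820 to 966 in a sham library. Scaled, the I/R libraries were at 6.28, 10.8 and 8.80 CPM and the sham libraries at 22.7, 23.8 and 23.8 CPM. The sham libraries were nearly equal, and every I/R library was well below them. The mean fell from 23.4 ± 0.611 to 8.62 ± 2.25 CPM, or by 1.44 on the log2 scale (SE 0.19, adjusted p = 0.00123 by edgeR). Only 1.48% of the genes tested had as low a log2 fold change or lower.

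The GABA-B receptor genes had the highest counts. Gabbr1 (MGP_BALBcJ_G0023660, chromosome 17, 36478117 to 36507163, plus strand) was at 357, 517 and 578 CPM in the I/R libraries and at 1002, 1004 and 1000 CPM in the sham libraries. The sham libraries were almost identical, and the highest I/R library was far below them. The mean fell from 1002 ± 1.98 to 484 ± 114 CPM, or by 1.05 on the log2 scale (SE 0.18, adjusted p = 0.00344 by edgeR).

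Its partner Gabbr2 (MGP_BALBcJ_G0028242, chromosome 4, 43431665 to 43771022, minus strand) was at 131, 230 and 215 CPM in the I/R libraries and at 394, 411 and 385 CPM in the sham libraries. Again no I/R library came near a sham library. The mean fell from 396 ± 13.3 to 192 ± 53.0 CPM, or by 1.04 on the log2 scale (SE 0.20, adjusted p = 0.00477 by edgeR). Gabrd, Gabbr1 and Gabbr2 kept their calls in all 17 alternatives, with an adjusted p of at most 0.0106, 0.0207 and 0.0263, respectively. At a fold change over 2, Gabra5, Gabrd, Gabbr1 and Gabbr2 were called, against 4.67% of all genes tested.

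I/R replicate 1 was the lowest library for all 7 genes. Without it all 7 were still called, and 21.2% of all genes tested were called lower. The log2 fold changes were then -0.52 for Gabra2, -0.67 for Gabra4, -0.98 for Gabra5, -0.66 for Gabrb1, -1.26 for Gabrd, -0.87 for Gabbr1 and -0.84 for Gabbr2. That library also had the lowest summed level of pan-neuronal markers, 2686 CPM against 4506 and 4988 in the other I/R libraries and 8225 to 8601 in sham. Its part in the size of the changes is given by the values without it.

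Neuronal markers moved with the receptor genes. The counts of markers that fell or rose below stand beside 19.9% called lower and 21.8% called higher of all genes tested. Of the 10 pan-neuronal markers 9 fell, and their mean log2 CPM was 0.98 lower in I/R than in sham. Of 7 glutamatergic markers 5 fell, with a mean log2 CPM 1.45 lower. Of the granule cell markers 8 of 9 fell, with a median log2 fold change of -1.39. Of the CA pyramidal markers 7 of 8 fell, with a median of -1.04. Interneuron markers had a median log2 fold change of -0.29, and 7 of 13 fell. Of 7 microglia markers 4 rose and 2 fell, and their sum was 272 to 305 CPM in a sham library against 375 to 528 CPM after I/R. Of 5 endothelium markers 4 rose and 1 fell, with sums of 230 to 233 and 316 to 473 CPM. Other glial markers fell in part: 5 of 8 astrocyte markers fell and 2 rose (median -0.51), 3 of 7 oligodendrocyte markers fell (median -0.39) and 2 of 4 markers of oligodendrocyte precursors fell (median -0.22). None of these glial and endothelium markers was at 0 counts in any library. Choroid plexus markers varied within both groups, from 173 to 6241 CPM within sham and from 141 to 4904 CPM after I/R. With their level as a covariate all 7 receptor genes kept the call, and 18.6% of all genes tested were called lower. How far a change in the share of neurons enters the receptor values was not tested.

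The receptor genes were therefore also set against the pan-neuronal markers of the same library, as log2 CPM of the gene minus the mean log2 CPM of the 10 markers. On this scale I/R minus sham was 0.12 for Gabra2, -0.12 for Gabra4, -0.039 for Gabrb1, -0.098 for Gabbr1 and -0.10 for Gabbr2, and the groups overlapped for these 5 genes. For Gabra5 the I/R libraries were at -2.41, -1.93 and -1.77 and the sham libraries at -1.51, -1.64 and -1.64, a difference of -0.44. For Gabrd they were at -5.17, -5.08 and -5.49 and at -4.79, -4.77 and -4.71, a difference of -0.49. Leaving out 1 library gave -0.25 to -0.57 for Gabra5, the smallest without I/R replicate 1, and -0.37 to -0.57 for Gabrd, the smallest without I/R replicate 3. Gabra5 and Gabrd were the members whose I/R libraries all stayed below sham relative to the markers, which held for 2.39% of all genes tested, while 77.9% had all I/R libraries above sham on this scale. The exact two-sided permutation test gave p = 0.1 for each, the smallest that 3 against 3 libraries allow, and 0.35 after Benjamini-Hochberg adjustment over the 7 genes. With the glutamatergic markers as reference, the differences were 0.029 for Gabra5 and -0.022 for Gabrd, and 0.34 to 0.59 for the other members.

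**Figure D2:**
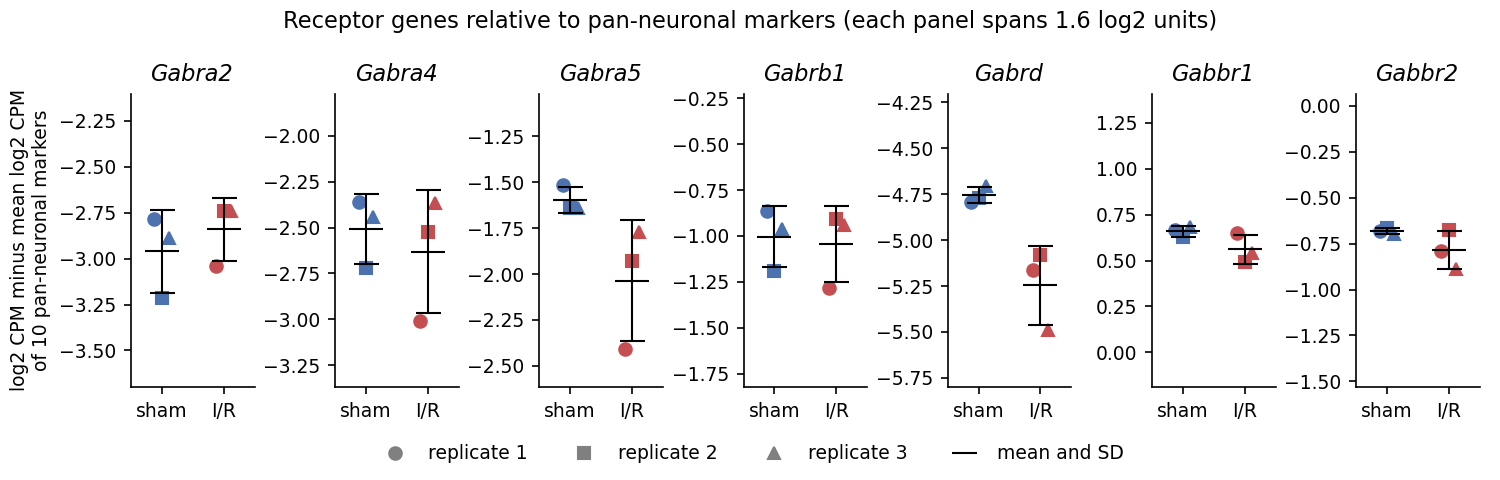
Level of each receptor gene relative to 10 pan-neuronal markers in the same library (log2 CPM of the gene minus the mean log2 CPM of the markers). Each panel spans the same number of log2 units around its own centre, symbols mark replicates and bars give mean and SD of 3 libraries. Gabra5 and Gabrd are the panels in which all I/R points lie below all sham points, by 0.44 and 0.49 on average; without I/R replicate 1, the lowest point of Gabra5, the difference of Gabra5 is -0.25.

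Ratios between members within a library do not depend on how libraries were scaled. The GABA-B partners kept a log2 ratio of Gabbr1 to Gabbr2 near that of sham (1.34 ± 0.045) after I/R (1.35 ± 0.15). The difference of 0.0065 was smaller than the spread between libraries. For the extrasynaptic partners, the log2 ratio of Gabrd to Gabra4 was -2.16, -2.56 and -3.13 after I/R against -2.43, -2.05 and -2.27 for sham, and the groups overlapped (exact permutation p = 0.3). Gabra5 to Gabra2 was 0.63, 0.81 and 0.97 after I/R against 1.27, 1.57 and 1.25 for sham. Every I/R library was lower, with a mean difference of -0.56. Gabra4 to Gabra2 and Gabrb1 to Gabra2, which compare genes of 1 cluster on chromosome 5, differed by -0.25 and -0.16, also without overlap. The ratios to Gabra2 share that gene, which had the smallest fold change of the members, so they are not independent of each other. How many of all genes tested had a ratio to Gabra2 without overlap was not computed. Without I/R replicate 1 the Gabra4 to Gabra2 difference was -0.16, and the Gabrd to Gabra4 difference of -0.37 was -0.59 without I/R replicate 1 and -0.11 without I/R replicate 3. Each of the 3 ratios to Gabra2 had an exact permutation p of 0.1 and an adjusted p of 0.167 over the 5 ratios.

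Levels of different genes were compared per length, by the deposited FPKM. In sham, Gabbr1 led at 515 ± 2.95 FPKM, followed by Gabbr2 at 163 ± 4.44, Gabra5 at 71.8 ± 3.68, Gabra4 at 47.0 ± 5.53, Gabrb1 at 40.0 ± 4.14, Gabra2 at 28.4 ± 3.99 and Gabrd at 12.7 ± 0.286. Gabra4 and Gabrb1 overlapped between libraries, and the other neighbours in this order did not. The order depends on the length used: with the table's length column, Gabra5 came before Gabbr2.

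The GABA-A subunit genes outside the set gave a mixed picture. Of 11 such genes examined here 8 were tested, 3 fell and 0 rose by edgeR, with a median log2 fold change of -0.38. Among all genes tested, 19.9% were called lower and 21.8% higher. The genes that fell were the alpha gene Gabra3 (-0.92, SE 0.15), the beta gene Gabrb2 (-0.89, SE 0.23) and the gamma gene Gabrg3 (-0.80, SE 0.13). For Gabra3 the I/R libraries lay between 31.5 and 48.2 CPM and the sham libraries between 73.7 and 81.5 CPM. For Gabrb2 the values were 60.9, 113 and 120 CPM against 190, 180 and 175 CPM, and for Gabrg3 18.8, 20.1 and 16.7 CPM against 36.0, 32.6 and 28.0 CPM. In all 3 genes the groups did not overlap, and I/R replicate 1 was the lowest library for Gabra3 and Gabrb2 but not for Gabrg3. Without I/R replicate 3, 5 subunit genes outside the set were called, 4 lower and 1 higher. Gabrg1 was added as lower and Gabrq as higher. Gabrq was also called higher with library size only. Gabrb2 lost its call without sham replicate 1 or 2, with an adjusted p of at most 0.0548 by edgeR.

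Gabrg1, a gamma subunit, had a log2 fold change of -0.37 and was not called. The rare subunits Gabre (1.24), Gabrq (1.11), Gabrr1 (0.68) and Gabrr2 (-0.39) had group means of 0.260 to 2.63 CPM and were not called either. Gabra6, which marks cerebellar granule cells, Gabrp and Gabrr3 did not pass the count filter.

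**Figure D3:**
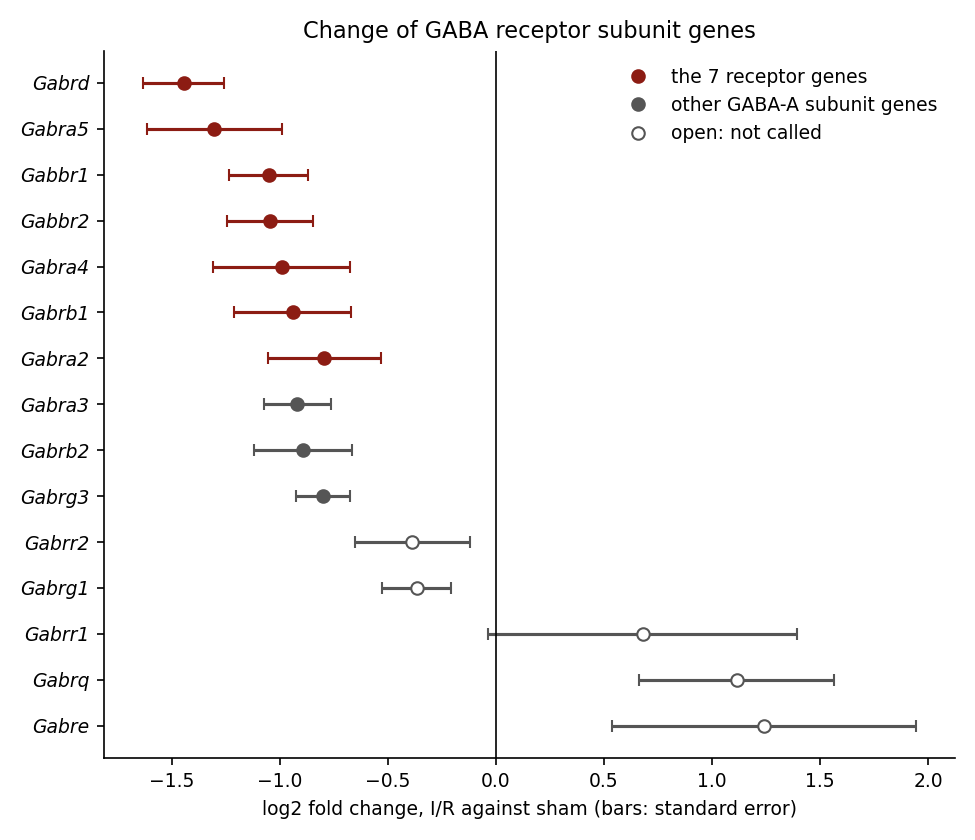
Log2 fold change of I/R against sham for the 7 receptor genes and 8 other GABA-A subunit genes, with bars for the standard error and filled points for called genes. The 7 receptor genes lie between -1.44 and -0.79, and the called genes Gabra3, Gabrb2 and Gabrg3 at -0.92, -0.89 and -0.80.

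Genes that act around the receptors were taken from 4 lists with 61 genes, of which 39 fell and 5 rose, with a median log2 fold change of -0.57. The counts for each list below stand beside 19.9% called lower and 21.8% called higher of all genes tested. Of 25 scaffold and trafficking genes, 16 fell and 3 rose. Mdga1, a neuroligin-binding protein that limits inhibitory synapses, fell from 106 ± 3.95 to 36.3 ± 4.62 CPM, or by 1.55 on the log2 scale (SE 0.11). Shisa7, an auxiliary subunit of GABA-A receptors, fell by 1.46 on the log2 scale, and Slitrk3, an adhesion protein of inhibitory synapses, by 1.10. The genes that rose were small in change: Gabarap at 0.30, Ubqln1 at 0.28 and Rdx, the anchor of alpha5 receptors outside synapses, at 0.33, and each lost its call in 4 to 8 of 17 alternatives. Trak2, a motor adaptor, had a mean of 285 ± 15.3 CPM for sham and 280 ± 47.5 CPM for I/R (adjusted p = 0.903 by edgeR).

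Of 18 GABA-B auxiliary and effector genes, 13 fell and 1 rose. Adcy1, a neuronal adenylyl cyclase, fell from 1923 ± 47.6 to 575 ± 217 CPM, or by 1.74 on the log2 scale (SE 0.28). Pianp, which binds the Gabbr1 product, fell by 1.15 and Kcnj6, a subunit of the potassium channels that GABA-B receptors open, by 1.02 on the log2 scale. Gnai2, an inhibitory G protein subunit also abundant in microglia, rose by 0.39 and kept its call in 13 of 17 alternatives. Rgs7, which speeds the end of G protein signals, was at 76.8 ± 1.95 CPM for sham and 72.6 ± 10.4 CPM for I/R (adjusted p = 0.586 by edgeR).

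Of 11 genes of GABA synthesis, release, uptake and breakdown, 8 fell and 1 rose. Slc6a11, the GABA transporter of astrocytes, fell by 1.06 on the log2 scale (SE 0.073). It was at 168, 169 and 168 CPM in the sham libraries and at 80.0, 80.8 and 80.5 CPM in the I/R libraries. The astrocyte markers had a median log2 fold change of -0.51 and ranged from -0.96 to 2.31. Aldh5a1, an enzyme of GABA breakdown, fell by 0.87 on the log2 scale, and Slc6a12, a transporter of betaine and GABA, rose from 2.13 ± 0.319 to 5.51 ± 2.01 CPM. Gad2, a GABA-synthesizing enzyme, was at 201 ± 11.4 CPM for sham and 184 ± 13.1 CPM for I/R and was not called (adjusted p = 0.334 by edgeR). Of 7 genes of the chloride gradient, 2 fell, beside 19.9% of all genes tested. Slc12a5, the neuronal chloride exporter, fell from 688 ± 25.7 to 255 ± 59.3 CPM (log2 fold change -1.43, SE 0.18), and the channel gene Clcn2 by 0.53. Slc12a2, the chloride importer, was at 107 ± 28.5 CPM for sham and 110 ± 30.7 CPM for I/R (adjusted p = 0.897 by edgeR).

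**Figure D4:**
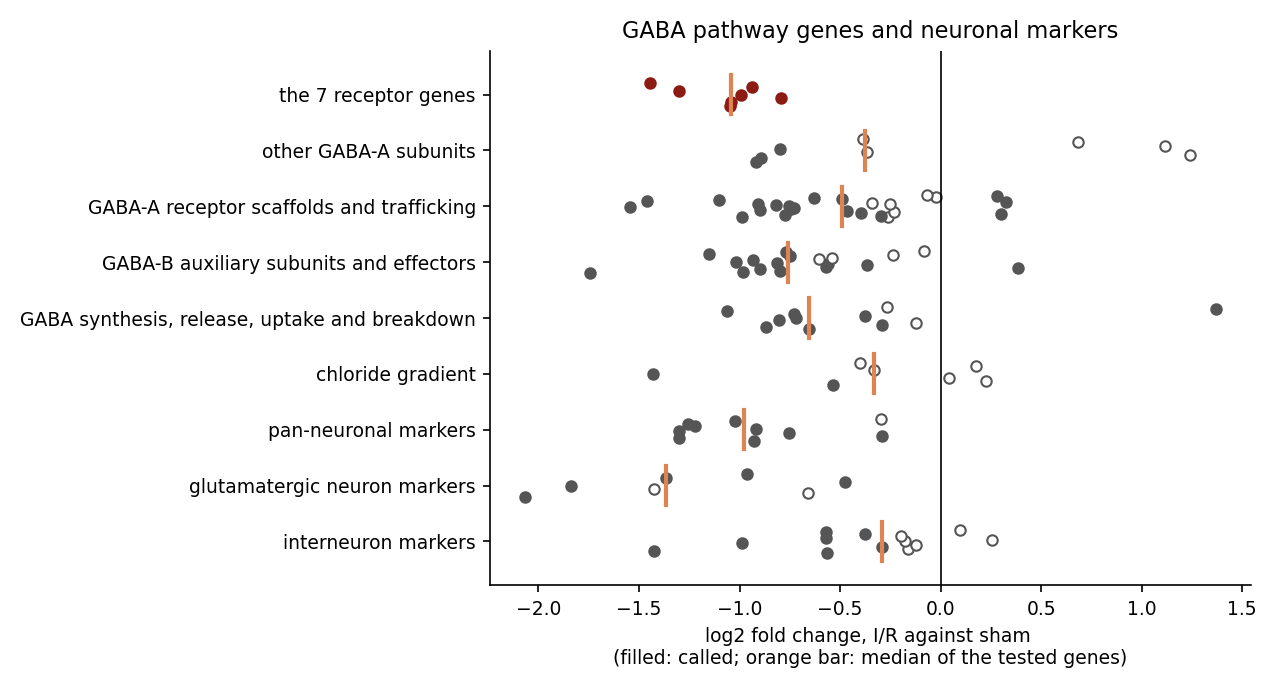
Log2 fold change of I/R against sham for single genes of each list, with filled points for called genes and an orange bar for the median of the tested genes. The glutamatergic markers have the lowest median of the lists shown, -1.37. The receptor genes have a median of -1.04, the pan-neuronal markers one of -0.98 and the interneuron markers one of -0.29. The medians of the pathway lists run from -0.76 for GABA-B auxiliary subunits and effectors to -0.33 for the chloride gradient, and the other GABA-A subunits have one of -0.38.

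The genes whose pattern over the 6 libraries was most like that of a member were found by the root mean square difference of centred log2 CPM. They were Kcna2 for Gabbr1 (0.024), Cacnb3 for Gabbr2 (0.025), Ppp3r1 for Gabra5 (0.028), Kcnj3 for Gabra2 (0.046), Bcl11a for Gabrb1 (0.058), Mmd for Gabra4 (0.081) and Selplg for Gabrd (0.087). The second nearest were D130043K22Rik, Pcdhgc5, Syt3, Mblac2, Ust, A830011K09Rik and Epor, in the same order. Among the members themselves, Gabra2 and Gabrb1, which lie on either side of Gabra4 on chromosome 5, were closest (0.090), next to the GABA-B pair (0.091), and Gabra2 and Gabrd were farthest apart (0.38). All libraries are shared by these comparisons, so they describe likeness and test nothing.

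Parts of some genes overlap. Gabra4 and Gabrb1 lie head to head on opposite strands and share 196 bases. In the GENCODE annotation of GRCm38, exons of another gene cover 4.98% of the exon bases of Gabra5, 0.756% of those of Gabra4 and 0.332% of those of Gabrb1. Whether the counting used strand was not given in the sources used here, so these counts may include or lack reads of the partner gene.

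The start regions of the members were read because the members fell together. RefSeq promoters (GRCm38.p6, 250 bases before to 50 after the start) matched 6 of the 7 genes, with 7 promoters. None held the CRE letters TGACGTCA, the EGR letters GCGTGGGCG, the AP-1 letters TGACTCA or the RE1 half-site letters TTCAGCACC on either strand, which 1.79%, 0.612%, 5.2% and 0.371% of 32851 promoters held. Shown here are the 250 bases before the start of 3 members in which no annotated exon lies, chosen after their sequences were seen, each written 5′ to 3′ on the strand of its gene, with CG dinucleotides in capitals. They are at chr5:71095850-71096099 (minus strand) for Gabra2, chr7:57510060-57510309 (minus) for Gabra5 and chr17:37045716-37045965 (plus) for Gabbr1.
Gabra2: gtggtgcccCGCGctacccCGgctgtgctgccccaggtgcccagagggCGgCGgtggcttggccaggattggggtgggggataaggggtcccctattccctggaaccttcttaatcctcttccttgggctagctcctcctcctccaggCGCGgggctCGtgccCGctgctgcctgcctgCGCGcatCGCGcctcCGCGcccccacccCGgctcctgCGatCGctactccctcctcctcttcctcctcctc
Gabra5: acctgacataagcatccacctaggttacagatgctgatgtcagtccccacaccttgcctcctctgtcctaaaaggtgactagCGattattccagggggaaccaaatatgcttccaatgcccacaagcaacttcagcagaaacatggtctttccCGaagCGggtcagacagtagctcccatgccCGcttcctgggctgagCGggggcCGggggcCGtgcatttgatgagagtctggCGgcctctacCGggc
Gabbr1: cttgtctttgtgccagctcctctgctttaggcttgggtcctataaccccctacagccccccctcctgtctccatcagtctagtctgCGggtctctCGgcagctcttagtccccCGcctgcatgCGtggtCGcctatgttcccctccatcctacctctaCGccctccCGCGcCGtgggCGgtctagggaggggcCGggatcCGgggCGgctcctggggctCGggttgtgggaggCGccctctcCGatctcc
These windows held 18, 9 and 16 CG dinucleotides, against a median of 6 over all promoters, and 70%, 56.4% and 66% G or C bases. The windows not shown, in which annotated exons lie, held 37 CG for Gabbr2, 12 for Gabra4, and 18 and 6 for the starts of Gabrb1.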

How the data were processed

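RNA of mouse hippocampus was sequenced in 3 I/R and 3 sham libraries, grouped by their titles. The methods state that the authors aligned reads with TopHat2 to an Ensembl genome and counted reads per gene with HTSeq, whereas the labels name Bowtie 0.12.2 and mm8. The deposited table holds raw read counts, FPKM and the authors' own fold changes and p-values, which were not used. Its identifiers are those of the BALB/cJ annotation, although the mice were C57BL/6 (C57BL/6J in the methods), so coordinates are on that assembly. The length implied by the deposited FPKM, rounded to 1 base, equalled the length column for 7220 of 19896 genes counted in every library, was below it for 12676 and above it for 0, so FPKM orders of genes depend on it. The table had 41390 lines for 41386 genes, since 4 split lines were rejoined.

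Counts were tested in R 4.3.3 with edgeR 4.0.16 (filterByExpr, TMM, glmQLFit with robust estimation, glmQLFTest) across 18569 genes with no covariate, and the fit was tested on simulated data. The SE was the absolute log2 fold change divided by the square root of F. Values per library used log2 CPM with a prior count of 2. Alternatives used limma 3.58.1, DESeq2 1.42.0, other scalings and filters, log2(FPKM + 1), and each library left out. With 37493042 to 44788547 counts per library, the rarest member had at least 286 counts in a library. Same-numbered libraries did not deviate together (correlations of -0.097, 0.056 and -0.18). Named were all members, the tested subunits of the list (some subunit genes are not reported here), the 3 called genes of largest change and the 1 tested gene of largest adjusted p per pathway list, and the 2 genes nearest to each member; Gabarap, Ubqln1, Rdx and Gnai2 were added as the genes that rose. The members and lists were chosen with earlier results of these data known.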

Additional observations from a re-analysis of the deposited data

How the results depend on the processing

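All 7 members were lower in all 17 alternative fits. The count of 7 called members was 5 with library size only (10.9% of all genes tested were called lower in that fit, against 19.9%), 5 with both FPKM scales (11.0%), 3 without the count filter (12.2%), 4 at a fold change over 2 (4.67%), and 4 to 7 with 1 library left out: 4 without any 1 sham library (12.7% to 13.7%), when Gabra2, Gabra4 and Gabrb1 were lost, and 5 without I/R replicate 2 (16.8%). The fits with 1 library left out have fewer libraries, and the filter alternative tests more genes. The scaling, FPKM and fold change alternatives use all libraries. Beyond that the cause was not tested. Library size alone moved the median log2 fold change of all genes from 0.026 to 0.28, and the Gabra2 and Gabra4 values were then -0.55 and -0.75 (adjusted p = 0.0936 and 0.0665 by edgeR).

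With glutamatergic in place of pan-neuronal markers, the relative differences changed sign for 5 members, to 0.029 for Gabra5, 0.37 for Gabbr1, 0.36 for Gabbr2, 0.34 for Gabra4 and 0.43 for Gabrb1, and moved to 0.59 for Gabra2 and -0.022 for Gabrd. With 1 library left out and pan-neuronal markers, those of Gabra2 (-0.0053 to 0.22), Gabra4 (-0.26 to 0.064) and Gabrb1 (-0.13 to 0.081) took either sign. The 3 called other subunits became 0 at a fold change over 2 (4.67% of all genes tested were called lower). With 1 library left out they became 2 to 5 (12.7% to 21.2% called lower). The 5 were reached without I/R replicate 3, with 4 lower and 1 higher (20.4% called lower). The 44 called pathway genes, 39 lower and 5 higher, became 9 at a fold change over 2, counted in either direction. At that fold change 4.67% of all genes tested were called lower. The replicate block left all 7 members called, although the numbers did not pair the libraries. The adjusted p was then 0.0492 for Gabra2 by edgeR. With this block 35 pathway genes were called, 34 lower and 1 higher, and 16.5% of all genes tested were called lower. With 1 library left out, the ratio differences were -0.041 to 0.094 for Gabbr1 to Gabbr2, -0.59 to -0.11 for Gabrd to Gabra4, -0.64 to -0.45 for Gabra5 to Gabra2, -0.33 to -0.16 for Gabra4 to Gabra2 and -0.18 to -0.13 for Gabrb1 to Gabra2. Gad1, which was lower at -0.29, was called in 5 of 17 alternatives.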
